A study of Macaca fascicularis with 16 samples.

Results

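Matrix metalloproteinases and the tissue inhibitors that block them were followed along the aorta of the cynomolgus monkey (Macaca fascicularis). The genes were taken as the rows of the count table whose NCBI GeneID carries 1 of 9 symbols, namely MMP2 (GeneID 101865544), MMP9 (102117693), MMP14 (102132205), MMP15 (102141821), MMP19 (102137084), TIMP1 (102144412), TIMP2 (102126333), TIMP3 (102141270) and TIMP4 (102117680). All 9 were found among 32822 GeneIDs, and all 9 passed the filter on low counts that left 15926 genes for testing. RNA was sequenced from 16 libraries of whole aortic tissue of normal young animals at baseline, with 4 libraries for each stretch of the vessel, namely ascending, descending, suprarenal (above the renal arteries) and infrarenal (below them). The labels give no genotype, treatment or disease that separates the groups, only the stretch of vessel sampled. Sex, exact age and the layers of the wall included are not stated in the labels. The labels also do not say that the libraries came from separate animals, so the p-values measure only the spread between these libraries.

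Matrix metalloproteinases (MMPs) are zinc-dependent proteases that cleave collagens, elastin, proteoglycans and basement membrane. They are made as inactive proenzymes. Tissue inhibitors of metalloproteinases (TIMPs) bind the active site and block it, so the balance of both families bears on how fast the matrix of the arterial wall is broken down. MMP2 and MMP9 are the secreted gelatinases, MMP14 and MMP15 are anchored in the cell membrane, and MMP19 is a secreted protease that acts on basement membrane proteins. MMP14 on the cell surface binds TIMP2, and this complex captures and activates the proenzyme of MMP2. TIMP1 blocks most secreted MMPs but is a poor inhibitor of the membrane-anchored ones. TIMP3 stays bound to the matrix and also blocks ADAM and ADAMTS proteases, and TIMP4 is known from heart and adipose tissue.

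Levels are given as CPM (counts of a gene per 1e6 counts of a library) after TMM scaling, which corrects library totals for differences in composition. Differences are log2 values with standard errors (SE) from a quasi-likelihood fit in edgeR over all 16 libraries, and a gene is called where the Benjamini-Hochberg adjusted p over all tested genes is under 0.05. Since CPM is not corrected for transcript length, levels are compared between regions and not between genes. Library totals ran from 14.4 to 21.41 in units of 1e6 counts. The 8 smooth muscle markers summed to between 13500 and 57100 CPM over the 16 libraries, and none was at 0. Of the libraries, 3 stood apart within their region. Infrarenal replicate 1 had a TMM factor of 0.736, against 0.977 to 1.08 in the other 15, and its 77 ribosomal protein genes summed to 104000 CPM. Ascending replicate 4 and suprarenal replicate 3 had the lowest smooth muscle sum of their regions, at 17600 and 13500 CPM, and the highest endothelial sum, at 1730 and 3080 CPM. Infrarenal replicate 3 shared both traits within its region, at 21800 and 2490 CPM, but was not counted among the 3. That set was chosen after the data were seen and not by a fixed rule on these markers. In bulk tissue, fewer cells of a type and less RNA per cell cannot be told apart.

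For most of these genes no difference between regions passed the test, and MMP9 was the exception. MMP9 fell in the infrarenal aorta relative to the ascending aorta, and it was the single member called in any of the 8 comparisons. In that comparison 3.49% of all tested genes were called, so 1 of 9 members is not far from the background. In the test of any difference among the 4 regions, 0 of 9 members were called beside 2.02% of all genes. None was called where infrarenal libraries were set against the mean of the other 3 regions, for which 2.98% of genes were. None was called for infrarenal against suprarenal (0.201% of genes), infrarenal against descending (1.65%), suprarenal against descending (0%), suprarenal against ascending (0.257%) or descending against ascending (0.113%).

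At an unadjusted p under 0.05, edgeR counted 2 members for infrarenal against ascending, namely MMP9 and MMP2, where 12.7% of all genes passed. It counted 1 for descending against ascending, which was MMP2 (6.74% of all genes). It counted MMP9 alone in the test of any difference (9.61%), for infrarenal against the mean of the other 3 (13.7%), against suprarenal (5.76%) and against descending (13.8%). No member passed for suprarenal against descending (1.66%) or suprarenal against ascending (5.5%). DESeq2 called MMP9 in the test of any difference, for infrarenal against the mean of the other 3, against descending and against ascending, and no other member in any comparison. Of the 9 members, 6 had a positive and 3 a negative difference between the infrarenal region and the mean of the other 3, with a median of 0.17 beside 0.03 over all tested genes. For descending against ascending, 5 were positive and 4 negative with a median of 0.25, beside -0.01 over all genes. For suprarenal against descending, 1 was positive and 8 were negative with a median of -0.13, beside 0.01 over all genes. Of all 15926 tested genes, 7697 were negative there. Among the 8, MMP19 (0.00), MMP15 (-0.02) and MMP14 (-0.03) lay close to 0, and the sign of MMP19 changed in 10 of 23 alternatives.

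**Figure D1:**
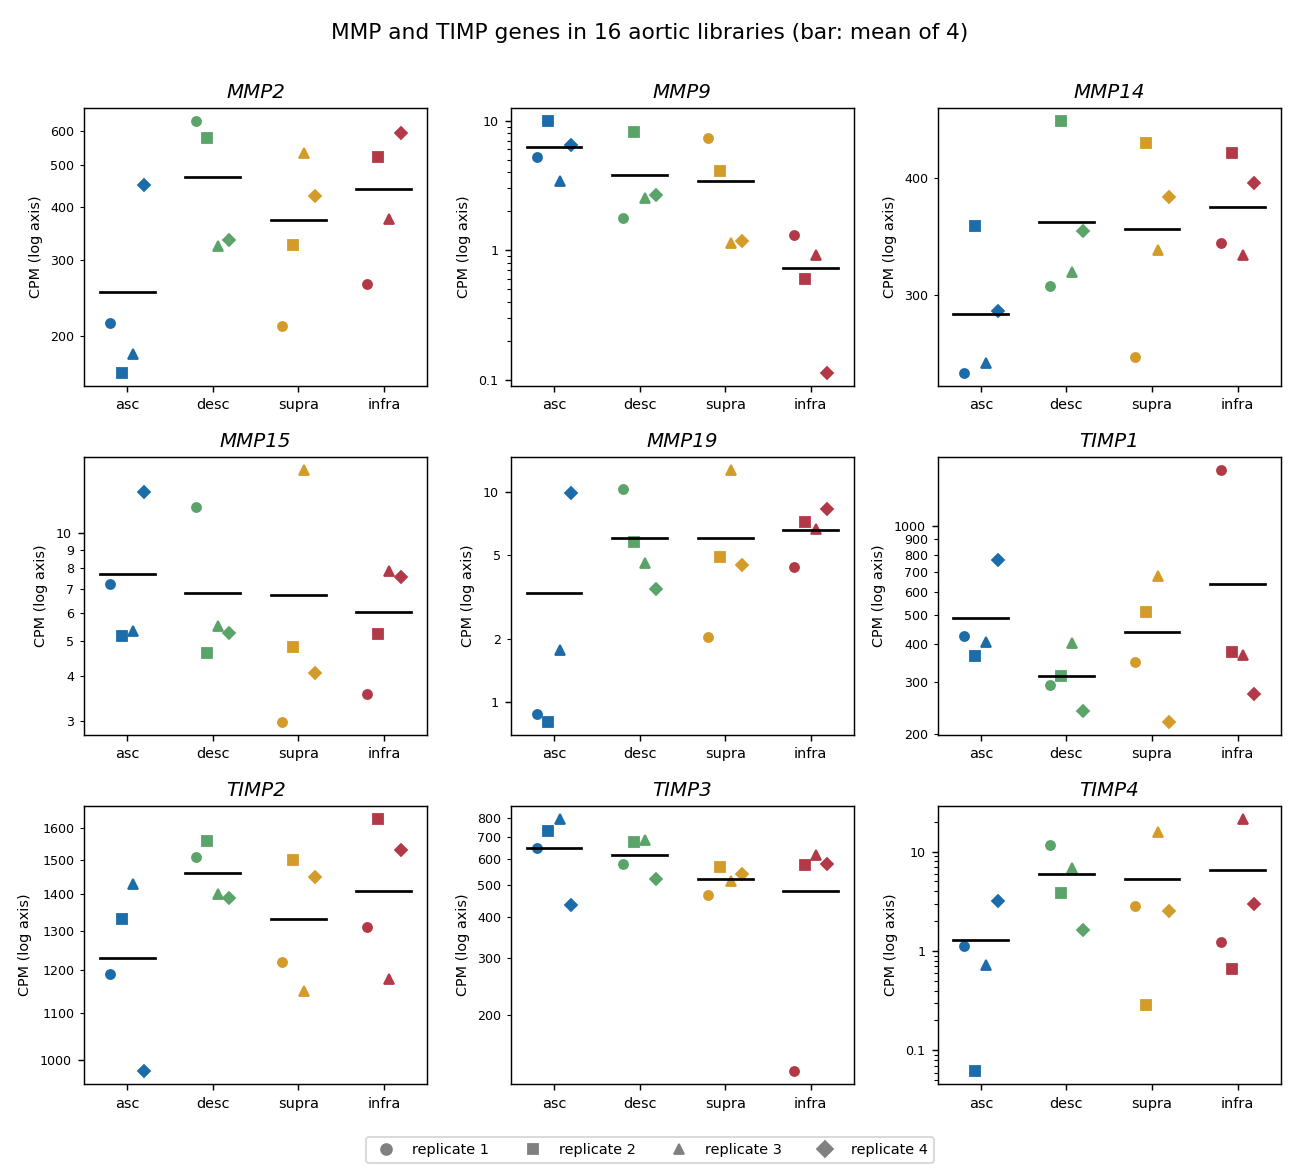
Level of each of the 9 genes in CPM (vertical axis, log scale) in the 4 libraries of each aortic region, with points for libraries and a bar for the region's mean. MMP9 is low in all 4 infrarenal libraries (0.113 to 1.31 CPM), while MMP14 and TIMP2 vary little and TIMP4 varies widely within regions.

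The secreted gelatinase MMP9, also known as gelatinase B and made mainly by inflammatory cells, stood at 5.2, 9.94, 3.45 and 6.52 CPM in the ascending libraries (6.28 ± 2.74, SD, n = 4). In the descending libraries it stood at 1.77, 8.13, 2.55 and 2.66 CPM (3.78 ± 2.93). Levels in the suprarenal libraries were 7.36, 4.11, 1.14 and 1.18 CPM (3.45 ± 2.96). The infrarenal libraries were the lowest group, at 1.31, 0.602, 0.917 and 0.113 CPM (0.736 ± 0.507). They lay below every ascending and every descending library and overlapped the suprarenal group, of which replicates 3 and 4 were as low as infrarenal replicate 1. Over all genes, 4.22% had infrarenal libraries that all lay below the ascending ones, and 5.51% below the descending ones.

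From the ascending to the infrarenal aorta, MMP9 differed by -3.10 in log2 terms (SE 0.75, 95% interval -4.70 to -1.51, adjusted p = 0.0291). Against the mean of the other 3 regions the difference was -2.57 (SE 0.67, interval -4.0 to -1.15) and just missed the threshold (adjusted p = 0.0513). It was -2.37 against the descending region (adjusted p = 0.151) and -2.24 against the suprarenal region (adjusted p = 0.468). The ascending, descending and suprarenal regions lay in this order of mean level, but neighbours in it overlapped, and the interval of the suprarenal minus ascending difference ran from -2.29 to 0.57.

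MMP9 was scarce, with 17, 10, 14 and 2 counts in the 4 infrarenal libraries against a sum of 409 counts over the ascending ones, so few reads carry the infrarenal value. The call against the ascending region was lost when ascending replicate 1 or 2 or infrarenal replicate 2, 3 or 4 was left out, with adjusted p up to 0.0988, while over all 23 alternatives the difference ran from -3.53 to -2.73. The call against the mean of the other 3 appeared with DESeq2 (-2.55, adjusted p = 0.000631) and in 6 other of the 23 alternatives. With the 3 libraries that stood apart left out together it was -3.09 (adjusted p = 0.0224).

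Cell type markers were read beside MMP9. The 9 macrophage markers summed to 104 to 229 CPM in the ascending, 110 to 261 in the descending and 110 to 295 CPM in the suprarenal libraries. In the infrarenal libraries they summed to 233, 122, 97.3 and 114 CPM, so that replicate 1 alone set the upper end there. Of the 4 libraries highest in macrophage markers, 1 was among the 4 highest in MMP9. The 4 neutrophil markers found in the file summed to at most 2.73 CPM in any library and none passed the filter on low counts. The summed CPM of the 6 mesothelial markers did follow the regions, at 78.8 to 197 in the ascending and 18.8 to 67.9 in the descending libraries. It was 16.2 to 27.6 in the suprarenal and 8.31 to 17.5 in the infrarenal ones. A mean over the 5 tested markers, each as log2 CPM minus its own mean, separated the regions less. It was -0.18, -0.5, 0.13 and 3.61 in the ascending and 0.11, 0.05, 1.18 and -0.21 in the descending libraries. The suprarenal libraries had -0.79, -0.31, 0.76 and -0.77 and the infrarenal ones -0.67, -0.69, -0.4 and -1.31. Cardiac muscle markers, of which 6 of 7 were found and 3 passed the filter on low counts, summed to 229 to 481 CPM in the ascending libraries. Their sums were 125 to 439 CPM in the descending, 117 to 351 in the suprarenal and 53.6 to 170 in the infrarenal libraries, so neighbouring regions overlapped. The part of mesothelial and cardiac tissue in the MMP9 difference was not tested.

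**Figure D2:**
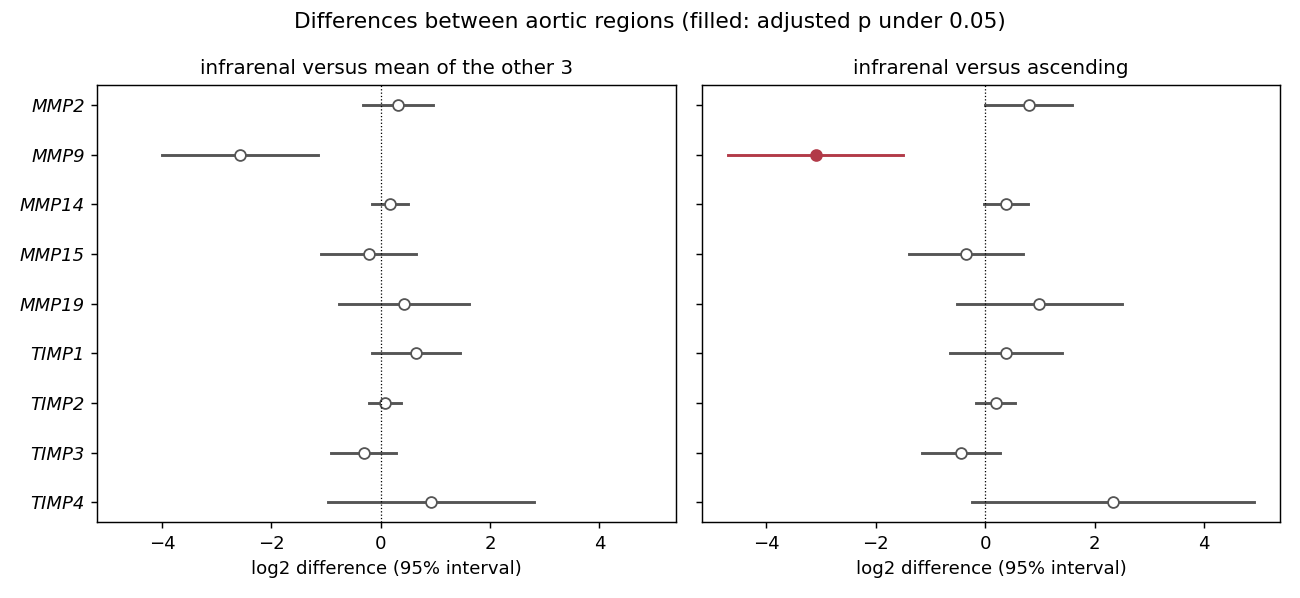
Log2 difference of each gene between the infrarenal region and the mean of the other 3 regions (left) or the ascending region (right), with 95% intervals from the edgeR fit over 16 libraries and filled points where the adjusted p is under 0.05. MMP9 against the ascending region, at -3.10, is the only filled point, and the interval of TIMP2 is narrow (-0.21 to 0.37 on the left) while that of TIMP4 is wide (-0.97 to 2.81).

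MMP2, or gelatinase A, is the gelatinase that smooth muscle cells and fibroblasts make constitutively. Its ascending libraries held 214, 164, 182 and 450 CPM (253 ± 133). The descending libraries held 633, 579, 324 and 335 CPM (468 ± 161), and the suprarenal libraries 211, 326, 533 and 424 CPM (373 ± 138). In the infrarenal libraries MMP2 stood at 264, 522, 375 and 595 CPM (439 ± 148). Ascending replicates 1 to 3 were the lowest group of libraries apart from suprarenal replicate 1, and ascending replicate 4 lay among the libraries of the other regions. The infrarenal minus ascending difference was 0.80 (SE 0.37, unadjusted p = 0.0491, adjusted p = 0.39), and the descending minus ascending difference was 0.89 (SE 0.37, unadjusted p = 0.0308, adjusted p = 0.69). Neither passed.

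MMP19 showed the same split within the ascending aorta. The ascending libraries held 0.877, 0.802, 1.76 and 9.84 CPM (3.32 ± 4.37), so that replicate 4 exceeded the other three by a wide margin. The descending libraries held 10.3, 5.78, 4.61 and 3.44 CPM (6.02 ± 2.99) and the suprarenal libraries 2.04, 4.88, 12.7 and 4.49 CPM (6.02 ± 4.62). The infrarenal libraries were the most even, at 4.4, 7.16, 6.62 and 8.26 CPM (6.61 ± 1.63). With all libraries the infrarenal minus ascending difference was 0.99 (SE 0.71, interval -0.52 to 2.50, adjusted p = 0.684).

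Leaving out ascending replicate 4 raised the infrarenal minus ascending difference of MMP19 to 2.52 (SE 0.59, adjusted p = 0.0252), which is a call. For MMP2 it became 1.23 (adjusted p = 0.0711). In the fit without ascending replicate 4, suprarenal replicate 3 and infrarenal replicate 1, chosen after the data were seen, both genes were called for infrarenal against ascending. There MMP19 differed by 2.67 (adjusted p = 0.00313) and MMP2 by 1.41 (adjusted p = 0.00958). In the same fit MMP19 was also called for descending against ascending, at 2.38 (adjusted p = 0.0315), and for infrarenal against the mean of the others, at 1.30 (adjusted p = 0.0241). Without ascending replicate 4 alone, MMP19 was not called in these last comparisons, with 2.38 for descending against ascending (adjusted p = 0.17) and 0.93 for infrarenal against the mean of the others (adjusted p = 0.26).

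The libraries high in MMP19 were mostly those high in endothelial markers. The 8 endothelial markers summed to 350, 327, 528 and 1730 CPM in the ascending libraries, 612 to 872 in the descending, 409, 705, 3080 and 555 in the suprarenal and 682, 866, 2490 and 1120 in the infrarenal libraries. Of the 4 libraries with the highest endothelial sum, 3 were among the 4 highest in MMP19 (ascending replicate 4, suprarenal replicate 3 and infrarenal replicate 4). Infrarenal replicate 3, with the second highest endothelial sum, held 6.62 CPM of MMP19 and lay within its region. Descending replicate 1 was high in MMP19 at 10.3 CPM with an endothelial sum of 618 CPM. Lymphocyte markers, which summed to at most 7.61 CPM, had the same 4 highest libraries as the endothelial ones. The overlap was therefore not particular to endothelial markers. Of the 4 libraries highest in macrophage markers, 2 were among the 4 highest in MMP19. The part of endothelial or other cells in the MMP19 values was not tested.

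MMP14, the membrane-anchored activator of MMP2, was among the steadiest genes of the set. It stood at 248, 356, 254 and 289 CPM in the ascending libraries (287 ± 49.6) and at 307, 460, 318 and 351 CPM in the descending ones (359 ± 70). The suprarenal libraries held 258, 436, 335 and 382 CPM (353 ± 75.3) and the infrarenal ones 341, 425, 331 and 395 CPM (373 ± 45). The ascending group had the lowest mean, but its replicate 2 lay within the other 3 groups. The infrarenal minus ascending difference was 0.38 (SE 0.19, interval -0.02 to 0.78, adjusted p = 0.439). Against the mean of the other 3 regions the infrarenal difference was 0.17 with an interval of -0.15 to 0.50, so a rise of more than 0.50 lay outside it.

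MMP15, the other membrane-anchored member, was low and uneven. Its ascending libraries held 7.21, 5.18, 5.33 and 13 CPM (7.69 ± 3.68), the descending ones 11.8, 4.64, 5.52 and 5.27 CPM (6.8 ± 3.35), the suprarenal ones 2.97, 4.83, 15 and 4.07 CPM (6.71 ± 5.56) and the infrarenal ones 3.55, 5.24, 7.86 and 7.53 CPM (6.04 ± 2.03). A single library was far above the rest in the ascending, descending and suprarenal groups, and all 4 groups overlapped. The test of any difference gave an adjusted p of 0.988, and the infrarenal difference from the mean of the others was -0.22 (interval -1.09 to 0.65). Of the 4 libraries highest in MMP15, 3 were among the 4 highest in endothelial markers, a relation that was not tested. The 4 libraries highest in endothelial markers were also the 4 highest in lymphocyte markers.

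TIMP2, which both inhibits MMPs and joins MMP14 in the activation of MMP2, varied least. The ascending libraries held 1190, 1330, 1430 and 978 CPM (1230 ± 195) and the descending ones 1510, 1560, 1400 and 1390 CPM (1460 ± 84.8). The suprarenal libraries held 1220, 1500, 1150 and 1450 CPM (1330 ± 173) and the infrarenal ones 1310, 1630, 1180 and 1530 CPM (1410 ± 206). The highest library was 1.67 times the lowest over all 16. The infrarenal difference from the mean of the other 3 was 0.08 (interval -0.21 to 0.37, adjusted p = 0.875), and the descending minus ascending difference was 0.25 (interval -0.11 to 0.60).

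Ratios of counts within a library do not depend on the scaling of libraries, and they set the parts of the MMP2 activation complex side by side. MMP14 over TIMP2 lay between 0.178 and 0.296 in all 16 libraries, with means of 0.237 ± 0.0541 in the ascending, 0.245 ± 0.0386 in the descending, 0.264 ± 0.0376 in the suprarenal and 0.265 ± 0.0107 in the infrarenal region (SD, n = 4). The means differed by less than the spread of the ascending libraries. MMP2 over TIMP2 was 0.179, 0.123, 0.127 and 0.46 in the ascending libraries and 0.202, 0.32, 0.319 and 0.388 in the infrarenal ones. It was 0.42, 0.371, 0.232 and 0.241 in the descending and 0.173, 0.217, 0.465 and 0.292 in the suprarenal libraries. Ascending replicates 1 to 3 thus held less MMP2 per TIMP2 than most other libraries, and ascending replicate 4 held more than all but suprarenal replicate 3. These ratios compare libraries, and their values are not the ratio of molecules, since transcript lengths were not used.

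**Figure D3:**
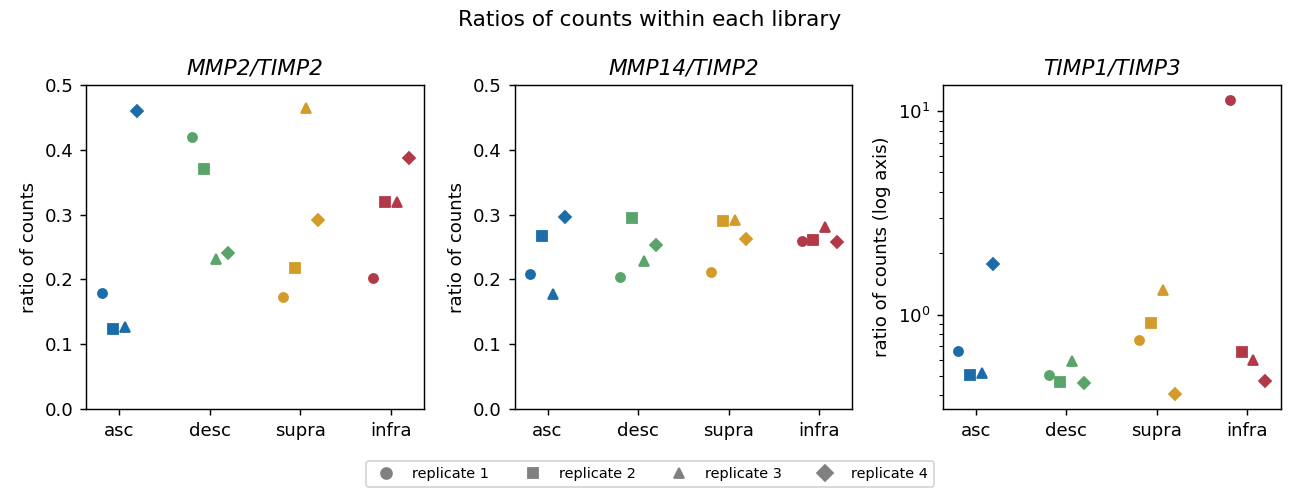
Ratios of counts within each of the 16 libraries for MMP2 over TIMP2, MMP14 over TIMP2 and TIMP1 over TIMP3 (vertical axes, log scale for the last), by aortic region, with points for libraries. MMP14 over TIMP2 stays between 0.178 and 0.296, ascending replicate 4 is high in MMP2 over TIMP2 at 0.46, and infrarenal replicate 1 stands at 11.4 in TIMP1 over TIMP3.

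TIMP1, a secreted inhibitor that many cells induce in response to injury and cytokines, held 426, 365, 407 and 766 CPM in the ascending libraries (491 ± 185) and 293, 314, 403 and 239 CPM in the descending ones (312 ± 68.4). The suprarenal libraries held 348, 514, 679 and 219 CPM (440 ± 200). Infrarenal replicate 1 held 1540 CPM, while the other infrarenal libraries, at 376, 369 and 273 CPM, lay among those of the other regions (638 ± 600 over all 4). The infrarenal difference from the mean of the other 3 regions was 0.65 (interval -0.16 to 1.46, adjusted p = 0.484). Without infrarenal replicate 1 it was -0.26 (adjusted p = 0.776), so the sign of this difference came from that library.

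TIMP3, the matrix-bound inhibitor, showed the opposite in the same library. It stood at 645, 727, 793 and 433 CPM in the ascending libraries (649 ± 157), 578, 675, 683 and 522 CPM in the descending ones (614 ± 78.1) and 464, 566, 512 and 540 CPM in the suprarenal ones (520 ± 43.7). The infrarenal libraries held 135, 575, 618 and 579 CPM (477 ± 229), and replicate 1 was the lowest of all 16. The infrarenal difference from the mean of the others was -0.31 (interval -0.91 to 0.28, adjusted p = 0.694), and without infrarenal replicate 1 it was 0.00 (adjusted p = 0.997). TIMP1 over TIMP3 was 11.4 in infrarenal replicate 1 and 0.654, 0.597 and 0.471 in the other infrarenal libraries, beside 0.458 to 0.591 in the descending region.

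Infrarenal replicate 1 and ascending replicate 4, the libraries highest in ribosomal protein genes, were extreme in both inhibitors. The 77 ribosomal protein genes summed to 104000 CPM in infrarenal replicate 1, 49000 in ascending replicate 4 and 44700 in suprarenal replicate 3. These libraries held 1540, 766 and 679 CPM of TIMP1, the 3 highest values. Of the 4 libraries highest in ribosomal protein genes, 3 were also among the 4 lowest in TIMP3. The fourth, ascending replicate 1, held 645 CPM of TIMP3, above most libraries. Of the 3, suprarenal replicate 3 held 512 CPM of TIMP3 and lay between the other suprarenal libraries (464 to 566 CPM). The part of RNA quality or library composition in the TIMP1 and TIMP3 values was not tested.

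TIMP4 was scarce and the most uneven member. The ascending libraries held 1.13, 0.0617, 0.726 and 3.2 CPM (1.28 ± 1.35) and the descending ones 11.7, 3.79, 6.79 and 1.61 CPM (5.97 ± 4.36). The suprarenal libraries held 2.85, 0.287, 15.6 and 2.54 CPM (5.32 ± 6.95) and the infrarenal ones 1.23, 0.662, 21.2 and 2.94 CPM (6.5 ± 9.82). Values ran over 343-fold across the 16 libraries, and every group overlapped every other. The infrarenal minus ascending difference was 2.34 (SE 1.21, interval -0.24 to 4.92, adjusted p = 0.479). Against the mean of the others the infrarenal difference was 0.92 (adjusted p = 0.726), and without infrarenal replicate 3 it was -1.08 (adjusted p = 0.677).

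The 7 white adipocyte markers summed to 169, 138, 133 and 576 CPM in the ascending, 2840, 855, 1160 and 288 in the descending, 557, 141, 2640 and 621 in the suprarenal and 147, 313, 2990 and 647 CPM in the infrarenal libraries. The 4 libraries with the highest adipocyte sum were the 4 with the highest TIMP4, namely infrarenal replicate 3, suprarenal replicate 3 and descending replicates 1 and 3. No adipocyte marker was at 0 in all libraries. The part of adipose tissue in the TIMP4 values was not tested.

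**Figure D4:**
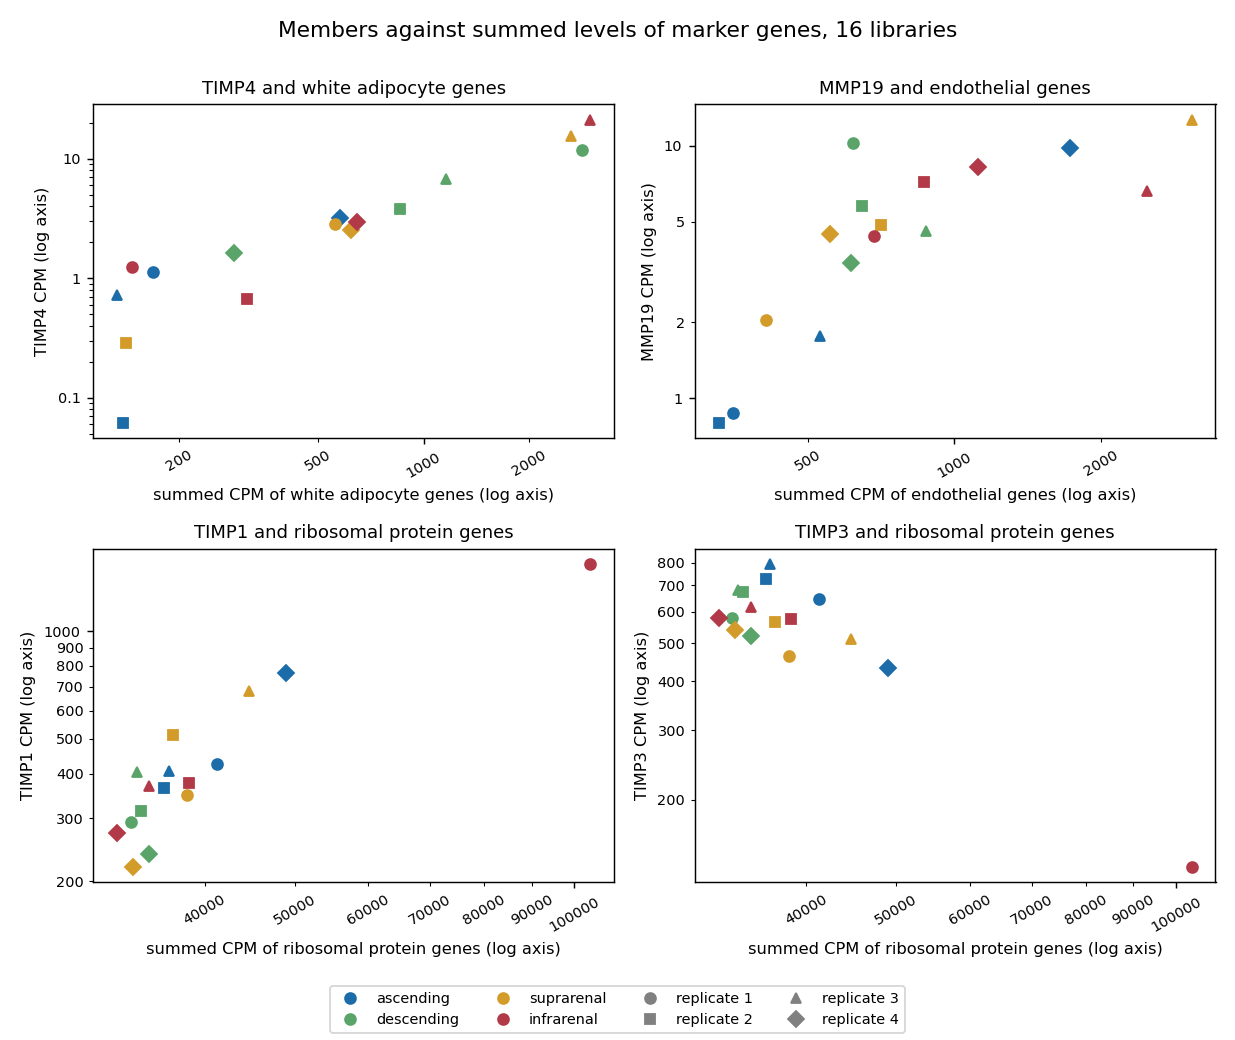
CPM of TIMP4, MMP19, TIMP1 and TIMP3 (vertical axes, log scale) against the summed CPM of white adipocyte, endothelial or ribosomal protein genes (horizontal axes, log scale) in 16 libraries, with colour for region and shape for replicate number. The 4 libraries highest in adipocyte genes are the 4 highest in TIMP4, and infrarenal replicate 1 lies apart at 104000 CPM of ribosomal protein genes with 1540 CPM of TIMP1 and 135 CPM of TIMP3.

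The members differed widely in how much they varied between libraries of the same region. The within-region SD of log2 CPM was 0.19 for TIMP2 and 0.26 for MMP14, beside a median of 0.43 over all tested genes. It was 0.57 for MMP2, 0.58 for TIMP3, 0.71 for MMP15 and 0.72 for TIMP1. MMP9, at 1.02, and MMP19, at 1.03, lay near the 90.5 and 90.8 percentiles of all genes, and TIMP4, at 1.83, lay at the 99.4 percentile. The share of a gene's variance that lay between regions was 61.8% for MMP9, beside a median of 17.9% over all genes. It was 35.9% for MMP2, 35.4% for MMP19 and 31% for MMP14, and between 5.26% and 25.9% for MMP15 and the 4 inhibitors.

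The genes most like each member were named by the highest correlation of log2 CPM over the 16 libraries among 12442 genes, as a description without a test, since all points share libraries and their composition. TIMP4 was closest to LGALS12 (r = 0.97), CIDEC (0.96) and PPARG (0.96), which are genes of adipocytes. MMP19 was closest to DCN (0.96), the gene of the small proteoglycan decorin, CREB3L1 (0.95) and GPX3 (0.94). MMP2 was closest to CPXM1 (0.93), SPON2 (0.93) and NID1 (0.92), the last a basement membrane protein. For TIMP1 these were FAM3A, NTHL1 and BLOC1S1 (0.96 each) and for TIMP3 MICAL3, CERK and NATD1 (0.96 each), sets in which infrarenal replicate 1 was an extreme point of the member. MMP9 was closest to TBL1XR1 (0.91), SPATA20 (0.86) and SERPINF2 (0.85). On deviations from the region means these fell to 0.77, 0.7 and 0.56. MMP14 was closest to BCHE (0.87), KAT14 (0.86) and the oestrogen receptor gene ESR1 (0.81). For MMP15 the closest were ARHGDIB (0.91), CFAP92 (0.91) and PML (0.90), and for TIMP2 DAAM2 (0.86), PEG3 (0.86) and LOC102131403 (0.85).

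Among the members themselves, MMP2 and MMP19 ran most alike, with Pearson's r of 0.90 and Spearman's rho of 0.89 over 16 libraries. The r was 0.86 on deviations from the region means and 0.85 without ascending replicates 2 and 3. MMP14 and TIMP2 had an r of 0.60 and a rho of 0.62. TIMP1 and TIMP3 had an r of -0.72 but a rho of -0.21, and without infrarenal replicate 1 and ascending replicate 4 the r was 0.11, so their inverse relation rested on those libraries.

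The other 18 MMP genes of the family were all in the file, and 8 of them (MMP11, MMP16, MMP21, MMP23B, MMP24, MMP25, MMP27 and MMP28) passed the filter on low counts. In the edgeR fit 0 of these 8 were called in any comparison, and between 0 and 2 had an unadjusted p under 0.05 in each. MMP16, a membrane-anchored relative of MMP14, had the smallest p in the test of any difference (unadjusted p = 0.00822, adjusted p = 0.189). It stood at 140 ± 40.3 CPM in the ascending, 209 ± 6.89 in the descending, 153 ± 72.4 in the suprarenal and 89.1 ± 13.9 in the infrarenal region, where the libraries held 68.6, 99.4, 94.2 and 94.2 CPM. The infrarenal libraries lay below every descending one, which held 200 to 217 CPM, and overlapped the ascending and suprarenal groups. The difference from the mean of the other 3 was -0.89 (SE 0.26, adjusted p = 0.0857) and did not pass. DESeq2 called MMP16, and no other of the 8, in the test of any difference, for infrarenal against the mean of the others and against descending. Without the 3 libraries that stood apart, MMP16 was called in the edgeR fit for infrarenal against the mean of the others (-0.93, SE 0.15, adjusted p = 0.00266), against each single region and in the test of any difference, and the other 7 in no comparison.

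The 10 genes that did not pass the filter were barely detected, among them the interstitial collagenase MMP1 and the macrophage elastase MMP12. MMP1 and MMP10 had 0 counts, as did MMP20 and MMP26, which allows a level of up to 0.0113 CPM over the counts of all libraries (265 in units of 1e6), for counting error only. MMP3 had 8 counts over all 16 libraries, MMP7 had 3, MMP8 had 2, MMP12 had 9 and MMP13 had 7. MMP17 had 35. At this depth no regional difference in them was detectable.

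Genes that activate, inhibit, induce or clear MMPs were read from a list of 28, of which 24 were tested. Relative to the mean of the other 3 regions, 3 were called in the infrarenal one, beside the 2.98% of all genes given above, and the list's median was -0.01 beside 0.03 over all genes. In the edgeR fit of that comparison 10 of the 24 had an unadjusted p under 0.05, beside 13.7% of all genes. PLAT, the tissue plasminogen activator that generates plasmin, fell by 1.05 in log2 terms (SE 0.23, adjusted p = 0.0208). Infrarenal libraries held 33.1 ± 7.59 CPM of it, against 63.4 ± 17.8 to 73.1 ± 23.2 CPM in the other regions. TFPI2, a serine protease inhibitor bound to the matrix that also restrains plasmin, rose by 0.87 (SE 0.22, adjusted p = 0.0451), with 24.9 ± 7.01 CPM against 11.2 ± 3.03 to 15.8 ± 5.32 CPM in the others. THBS1, the gene of thrombospondin, which binds MMP2 and MMP9 and takes part in their clearance, rose by 1.33 (SE 0.33, adjusted p = 0.0382), with 37, 125, 107 and 174 CPM in the infrarenal libraries, of which replicate 1 overlapped the other regions.

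For infrarenal against ascending, 2 of the 24 were called, both lower, beside 3.49% of all tested genes. There 7 of the 24 had an unadjusted p under 0.05 in the edgeR fit, beside 12.7% of all genes. PLAT fell by 1.14 (SE 0.27, adjusted p = 0.0258), and PCSK5, a proprotein convertase of the furin family, fell by 0.87 (SE 0.22, adjusted p = 0.0408), from 51.6 ± 5.34 to 28.3 ± 8.47 CPM. Of the 23 alternatives, the PLAT call against the mean of the others was lost in 1, without infrarenal replicate 2 (adjusted p = 0.0967). The PLAT call against ascending was lost in 6, with adjusted p up to 0.0955. The calls of TFPI2, THBS1 and PCSK5 were lost in 14, 13 and 13 of them. In the test of any difference and in the other 5 pairs of regions 0 of the 24 were called by edgeR. Of these 24, 5 had an unadjusted p under 0.05 in the test of any difference, beside 9.61% of all genes. DESeq2 called 3 in that test (PLAT, TFPI2 and THBS1). In those pairs 0 to 7 had such a p, beside 1.66% to 13.8% of all genes. DESeq2 called PLAT for infrarenal against suprarenal and PLAT and TFPI2 for infrarenal against descending. Without the 3 libraries that stood apart, 7 of the 24 were called for infrarenal against the mean of the others and 7 against ascending, THBS1 in both and PLAT in the former. In both comparisons that fit also called many more of all tested genes than the main fit, with counts given in the closing section.

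Neither the ADAM proteases, of which 10 of 12 were tested, nor the cathepsins and cystatins, of which 10 of 13 were tested, held a called gene in any comparison of the edgeR fit. At an unadjusted p under 0.05, 0 to 2 ADAM genes and 0 to 2 cathepsin or cystatin genes were counted in each, and DESeq2 called CTSB for infrarenal against descending and no other. Without the 3 libraries that stood apart, edgeR called ADAM10 and ADAM15 for infrarenal against the mean of the others, ADAM10 and ADAM22 against ascending, and ADAM22 in the test of any difference. The same fit called CTSB for infrarenal against the mean of the others and against descending, and CTSZ against ascending. The cathepsin gene CTSB, a lysosomal cysteine protease, differed by -0.37 between the infrarenal region and the mean of the others (adjusted p = 0.206). CTSD, the lysosomal aspartic protease, differed by 0.51 (adjusted p = 0.331). Infrarenal replicate 1 held 1410 CPM of CTSD and the other infrarenal libraries 524, 510 and 564 CPM. Without the 3 libraries that stood apart the CTSD difference in the edgeR fit was 0.04 (adjusted p = 0.891). Of 26 transcription factors and cytokines known to regulate MMP and TIMP genes 23 were tested and 0 called by edgeR, with 0 to 3 at an unadjusted p under 0.05 in each comparison. RUNX2, a factor of bone formation that also acts on MMP promoters, came nearest, at 2.07 for infrarenal against ascending (adjusted p = 0.0609). DESeq2 called RUNX2 for any difference and for all 3 pairs with the ascending region. RUNX2 was scarce, with 24 counts over the ascending libraries (0.0605 to 0.785 CPM) and 98 over the infrarenal ones (1.3 to 2.11 CPM), so few reads carry these differences. Without the 3 libraries that stood apart, edgeR called RUNX2 for any difference, for infrarenal against ascending (2.79, adjusted p = 0.00535) and for descending against ascending, and JUND for infrarenal against ascending and against the mean of the others. The cytokine genes IL6, TNF and OSM did not pass the filter on low counts.

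Among 18 matrix genes whose proteins MMPs cleave, all were tested. COL1A1, a chain of the main fibrillar collagen, rose by 2.09 from ascending to infrarenal (SE 0.32, adjusted p = 0.00144), a call kept in all 23 alternatives. Its level was 711 ± 148 CPM in the ascending, 1950 ± 486 in the descending, 2180 ± 639 in the suprarenal and 3030 ± 1200 CPM in the infrarenal region. COL1A2, the partner chain, rose by 0.94 in the same comparison (SE 0.22, adjusted p = 0.0255), a call lost in 6 of 23 alternatives. These were the 2 of the 18 called there, beside 3.49% of all genes. For descending against ascending, edgeR called 0 of the 18 and DESeq2 called 2 (COL1A1 and COL1A2). In the edgeR fit 7 of the 18 had an unadjusted p under 0.05, beside 6.74% of all genes. A positive difference was found for 16 of the 18, and the median was 0.38, beside -0.01 over all genes. COL1A1 and ACAN, the proteoglycan aggrecan, were the 2 genes called in the infrarenal region relative to the mean of the other 3, both higher. In that comparison 2.98% of all genes were called, and COL1A1 (1.07, adjusted p = 0.0201) lost the call in 2 of 23 alternatives. ACAN, at 3.29 (adjusted p = 0.0137), was not called without infrarenal replicate 1 (adjusted p = 0.105). COL1A1 was also called for any difference (adjusted p = 0.00948), in all 23 alternatives, beside 2.02% of all genes. For suprarenal against ascending it was called at 1.62 (adjusted p = 0.0444, 0.257% of all genes), lost in 12 of 23. ACAN was called for infrarenal against descending at 4.70 (adjusted p = 0.0375, 1.65% of all genes), lost in 8 of 23, with 49 counts over the descending libraries. Without the 3 libraries that stood apart, 7 of the 18 were called for infrarenal against ascending (ACAN, BGN, COL1A1, COL1A2, COL5A1, DCN and NID1) and 4 against the mean of the others (ACAN, BGN, COL1A1 and DCN). Many more of all tested genes were called in that fit than in the main one, as counted in the closing section.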

How the data were processed

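A fibrous tissue kit served for RNA extraction and a NEBNext Ultra kit for the libraries, per the labels' protocols. The values the authors deposited are raw counts per NCBI GeneID, made with fastp, HISAT2 (2.0.5) and featureCounts (1.5.0-p3), per the submitters' processing notes. No genome build or strand setting is stated, these being not given in the sources used here. Without a strand setting, reads of overlapping antisense genes cannot be told apart. Symbols of RefSeq genes of Macaca fascicularis (assembly MFA8v1.1) served for naming alone. They matched 24609 of 32846 rows (74.9%).

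Genes were kept with filterByExpr (minimum count 10, minimum total 15), which left 15926 genes. After TMM scaling, edgeR 4.0.16 (R 4.3.3) fitted 1 mean per region over all 16 libraries and tested contrasts by quasi-likelihood F tests. Benjamini-Hochberg adjusted p under 0.05 was called, over all tested genes. The tests were any difference among the 4 regions, infrarenal against the mean of the other 3, and the 6 pairs. Correlations used log2 CPM with a prior count of 2. The code was tested on simulated data. The members and gene lists were chosen with earlier results of these data known.

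The text names all 9 members, called list genes and up to 4 genes of each list with the smallest p, and for likeness the 3 highest correlations among genes whose mean log2 CPM was 1 or more. Others, such as the MMP genes with few counts, were named after their values were seen. The alternatives were no filter, library totals alone, RLE size factors, a minimum CPM of 1 in 4 libraries, DESeq2 1.42.0, a replicate block, each library left out in turn and, chosen after the data were seen, 3 libraries left out together.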

Additional observations from a re-analysis of the deposited data

Results flagged for a closer look

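In each of 36 groups (9 genes in 4 regions of 4 libraries), the library farthest from the others was checked for a gap too wide for the group's range. The limit passes about 5% of groups by chance where values are normally distributed and groups are independent. The gaps were taken on CPM, not on log2 CPM, and the groups share libraries, so that rate need not hold here. As a description only, 9 such gaps were found, in 6 libraries. In infrarenal replicate 1, TIMP1 was high at 1540 CPM and TIMP3 was low at 135 CPM. Ascending replicate 4 was high in MMP19, at 9.84 CPM, and in TIMP1, at 766 CPM. Suprarenal replicate 3 was high in MMP15, at 15 CPM, and in TIMP4, at 15.6 CPM. Infrarenal replicate 3 was high in TIMP4, at 21.2 CPM. In the descending region, replicate 1 was high in MMP15, at 11.8 CPM, and replicate 2 was high in MMP9, at 8.13 CPM. The gap made up between 0.833 of the group's range, for TIMP4 in suprarenal replicate 3, and 0.918, for TIMP1 in infrarenal replicate 1.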

How the results depend on the processing

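Of 1656 values for the members under the 23 alternatives, 1564 kept their sign and their side of the threshold, 5 lost a call, 16 gained one, 71 uncalled values changed sign and 0 called values reversed. Under DESeq2, 1 member (MMP9) was called in the test of any difference, for infrarenal against the mean of the other 3 and against descending, where edgeR called 0. DESeq2 called 825 genes for any difference (322 with edgeR), 852 for infrarenal against the mean of the others (474), 167 against suprarenal (32), 624 against descending (263) and 1004 against ascending (556). It called 184 for suprarenal against ascending (41) and 177 for descending against ascending (18). With library totals alone, 1 member (MMP9) was called for infrarenal against the mean of the others and 52 genes for infrarenal against suprarenal. That scaling moved the split for infrarenal against the mean of the others from 218 higher and 256 lower to 159 and 305. With the filter on CPM, 1 member (MMP9) was called in that comparison.

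Replicate numbers run from 1 to 4 in each region. Same-numbered libraries deviated together in 19 of 24 pairs at a correlation over 0.1 (range -0.17 to 0.58), and 15 of 16 libraries lay closest to their own number, a hint from the data that the labels do not state. With the replicate block, 1 member (MMP9) was called for infrarenal against the mean of the others. The block gave 532 genes for any difference, 84 for infrarenal against suprarenal, 432 against descending, 843 against ascending, 76 for suprarenal against ascending and 62 for descending against ascending.

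With the 3 libraries that stood apart (infrarenal 1, ascending 4 and suprarenal 3) all left out, 2 members were called for any difference (MMP2 and MMP19), 2 for infrarenal against the mean of the others (MMP9 and MMP19), 3 against ascending (MMP2, MMP9 and MMP19) and 1 for descending against ascending (MMP19). That fit called 1128 genes for any difference, 1607 for infrarenal against the mean of the others, 241 against suprarenal, 653 against descending, 2099 against ascending, 113 for suprarenal against ascending and 141 for descending against ascending. The cause of these changes was not tested.

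With 1 library left out at a time, 0 to 2 members were called for infrarenal against ascending and 0 to 1 against the mean of the others. Genes called ranged from 213 to 477 for any difference, 267 to 568 for infrarenal against the mean of the others, 3 to 52 against suprarenal, 132 to 326 against descending, 345 to 1001 against ascending, 19 to 66 for suprarenal against ascending and 7 to 34 for descending against ascending. Depth limits MMP9, with 43 counts over the infrarenal libraries, and the 10 MMP genes with at most 35 counts over all libraries.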
